A study of Mus musculus with 6 samples.

Results

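The regions described here lie at 7 genes that intestinal epithelial cells use or are recognised by: the homeobox factors Cdx1 and Cdx2, the nuclear receptor Hnf4a, the zinc-finger factors Gata6 and Klf4, the keratin Krt8 and the surface adhesion molecule Epcam. At each gene, every measured region that overlaps the gene with about 3 kb on either side (build mm9) was taken, whatever its level; the genes themselves were picked with earlier results of these data known. This gave 98 of 209687 regions: 9 at Cdx1, 20 at Cdx2, 25 at Hnf4a, 17 at Gata6, 11 at Klf4, 11 at Krt8 and 5 at Epcam. Of these, 87 had a value in all 6 samples and were compared, and 11 did not (6 at Hnf4a, 2 at Cdx2, 2 at Krt8 and 1 at Gata6). DNA was taken from colon epithelial cells of C57BL/6 mice aged 18 weeks, which were scraped from the colon after the proximal segment and tumors had been removed. The 3 groups held 2 samples each: mice that received the carcinogen azoxymethane and the colitis agent dextran sulfate sodium together with curcumin, a polyphenol of turmeric (AOM/DSS plus curcumin); mice that received both agents without curcumin (AOM/DSS); and controls. Doses and schedules are not in the labels, and nothing states that the 2 samples of a group are separate mice. The p-values of edgeR and of the permutation test therefore reflect the spread between these samples alone, which may be technical, and those of Fisher's exact test do not reflect it.

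CDX1 and CDX2 set and maintain intestinal identity, and CDX2 is needed for colon cells to remain intestinal. HNF4A and GATA6 act with them on genes of absorptive cells, and KLF4 is a factor of differentiated and goblet cells that restrains proliferation. Krt8 encodes a keratin of simple epithelia and Epcam a protein of epithelial cell contacts. Methyl groups on cytosines of CpG dinucleotides are usually absent from CpG-dense promoters and, at CpG-poor promoters and enhancers, tend to be fewer in cells that use the element. Neither RNA nor protein was measured, so the levels below say nothing of expression.

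The 250 bases before each RefSeq gene start (build GRCm38.p6) are shown for 3 of the genes because the starts differ in the number of sites that bisulfite sequencing can read. CpG dinucleotides are in capitals, and the strand is that of the gene. The table used holds 6 starts for 5 of the 7 genes. The Cdx2 start (chr5:147307250-147307499, minus strand) has 13 CpGs and the Klf4 start (chr4:55532476-55532725, minus strand) has 32, a number reached by 4.58% of the 32851 starts in the table. Hnf4a has an upstream start (chr2:163506607-163506856, plus strand) with 3 CpGs and a downstream start (chr2:163546905-163547154, plus strand) with 4, and 62.2% of all starts have at least 4. Krt8 has 3 and Epcam 8. These positions belong to another build than the measurements and were not converted.
Cdx2: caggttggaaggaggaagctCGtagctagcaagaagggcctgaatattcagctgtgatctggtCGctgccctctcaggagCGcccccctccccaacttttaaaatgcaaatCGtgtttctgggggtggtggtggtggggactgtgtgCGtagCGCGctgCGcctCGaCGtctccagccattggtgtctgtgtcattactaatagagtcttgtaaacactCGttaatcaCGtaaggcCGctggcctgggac
Klf4: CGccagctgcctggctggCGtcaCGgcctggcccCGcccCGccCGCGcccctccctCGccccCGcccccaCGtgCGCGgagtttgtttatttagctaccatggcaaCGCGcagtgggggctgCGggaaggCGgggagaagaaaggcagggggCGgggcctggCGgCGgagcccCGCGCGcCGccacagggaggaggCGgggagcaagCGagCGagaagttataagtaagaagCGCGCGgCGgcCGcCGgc
Hnf4a upstream start: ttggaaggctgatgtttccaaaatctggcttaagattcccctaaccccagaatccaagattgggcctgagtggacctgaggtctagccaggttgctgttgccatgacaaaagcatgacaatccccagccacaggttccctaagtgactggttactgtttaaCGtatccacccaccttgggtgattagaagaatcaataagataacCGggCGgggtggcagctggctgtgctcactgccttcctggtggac
Hnf4a downstream start: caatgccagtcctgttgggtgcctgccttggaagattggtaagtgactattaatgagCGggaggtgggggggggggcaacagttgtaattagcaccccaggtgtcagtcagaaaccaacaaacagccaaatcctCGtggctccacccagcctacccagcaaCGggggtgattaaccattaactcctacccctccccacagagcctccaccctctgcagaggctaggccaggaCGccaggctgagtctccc

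Levels are percentages of methylated calls among all calls at the CpGs of a region. The 6 libraries held 24682973 to 30727568 calls, of which 12795 to 16910 fell in the 98 regions, and the median compared region had 106 to 152 calls per library. Calls from 1 read are not independent, so intervals and upper limits given below cover counting error only. In the figures and the text, distances are measured from an approximate gene start, placed 3 kb inside the window, which may be off by about 1 kb.

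The libraries of one group stood apart at one gene. In 3 compared regions inside Cdx2, control replicate 1 lay over 40 points above control replicate 0. A gap of this size and direction was found in 53 of 179922 regions (0.0817% had such a gap in either direction). Among the 87 compared regions, none of the other 6 genes had a control gap of 30 points or more, and no gap of that size was found in the AOM/DSS plus curcumin or AOM/DSS group. Over the 18 Cdx2 regions the control replicates differed by a mean of 14.3 points, against 4.92 points over all regions. Mean differences at Cdx2 are therefore also given without single libraries or without the 4 intermediate regions inside the gene, which include these 3.

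Most of the measured DNA at the 7 genes carried little methylation in every group. By the mean over the 6 samples, 61 of the 87 regions (70.1%) were low (under 20%), 21 (24.1%) intermediate and 5 (5.75%) high (over 80%), while 43.2%, 33.5% and 23.3% of all 179922 regions fell in these classes. Members with many CpGs were nearly all low: 43 of 48 with at least 10 CpGs (89.6%), against 72.0% of all such regions, and 18 of 39 with 3 to 9 CpGs (46.2%), against 28.3% of all such regions. Across members, which share libraries and differ in base composition, the level went down with the number of CpGs (Spearman's rho = -0.648, Pearson's r = -0.474, n = 87 regions), as it did over all regions (rho = -0.451). Low levels at CpG-dense members say little about cell type, since most CpG-dense regions were low. No leukocyte or stromal genes were analysed here, so the share of epithelial DNA in the samples was not tested.

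**Figure D1:**
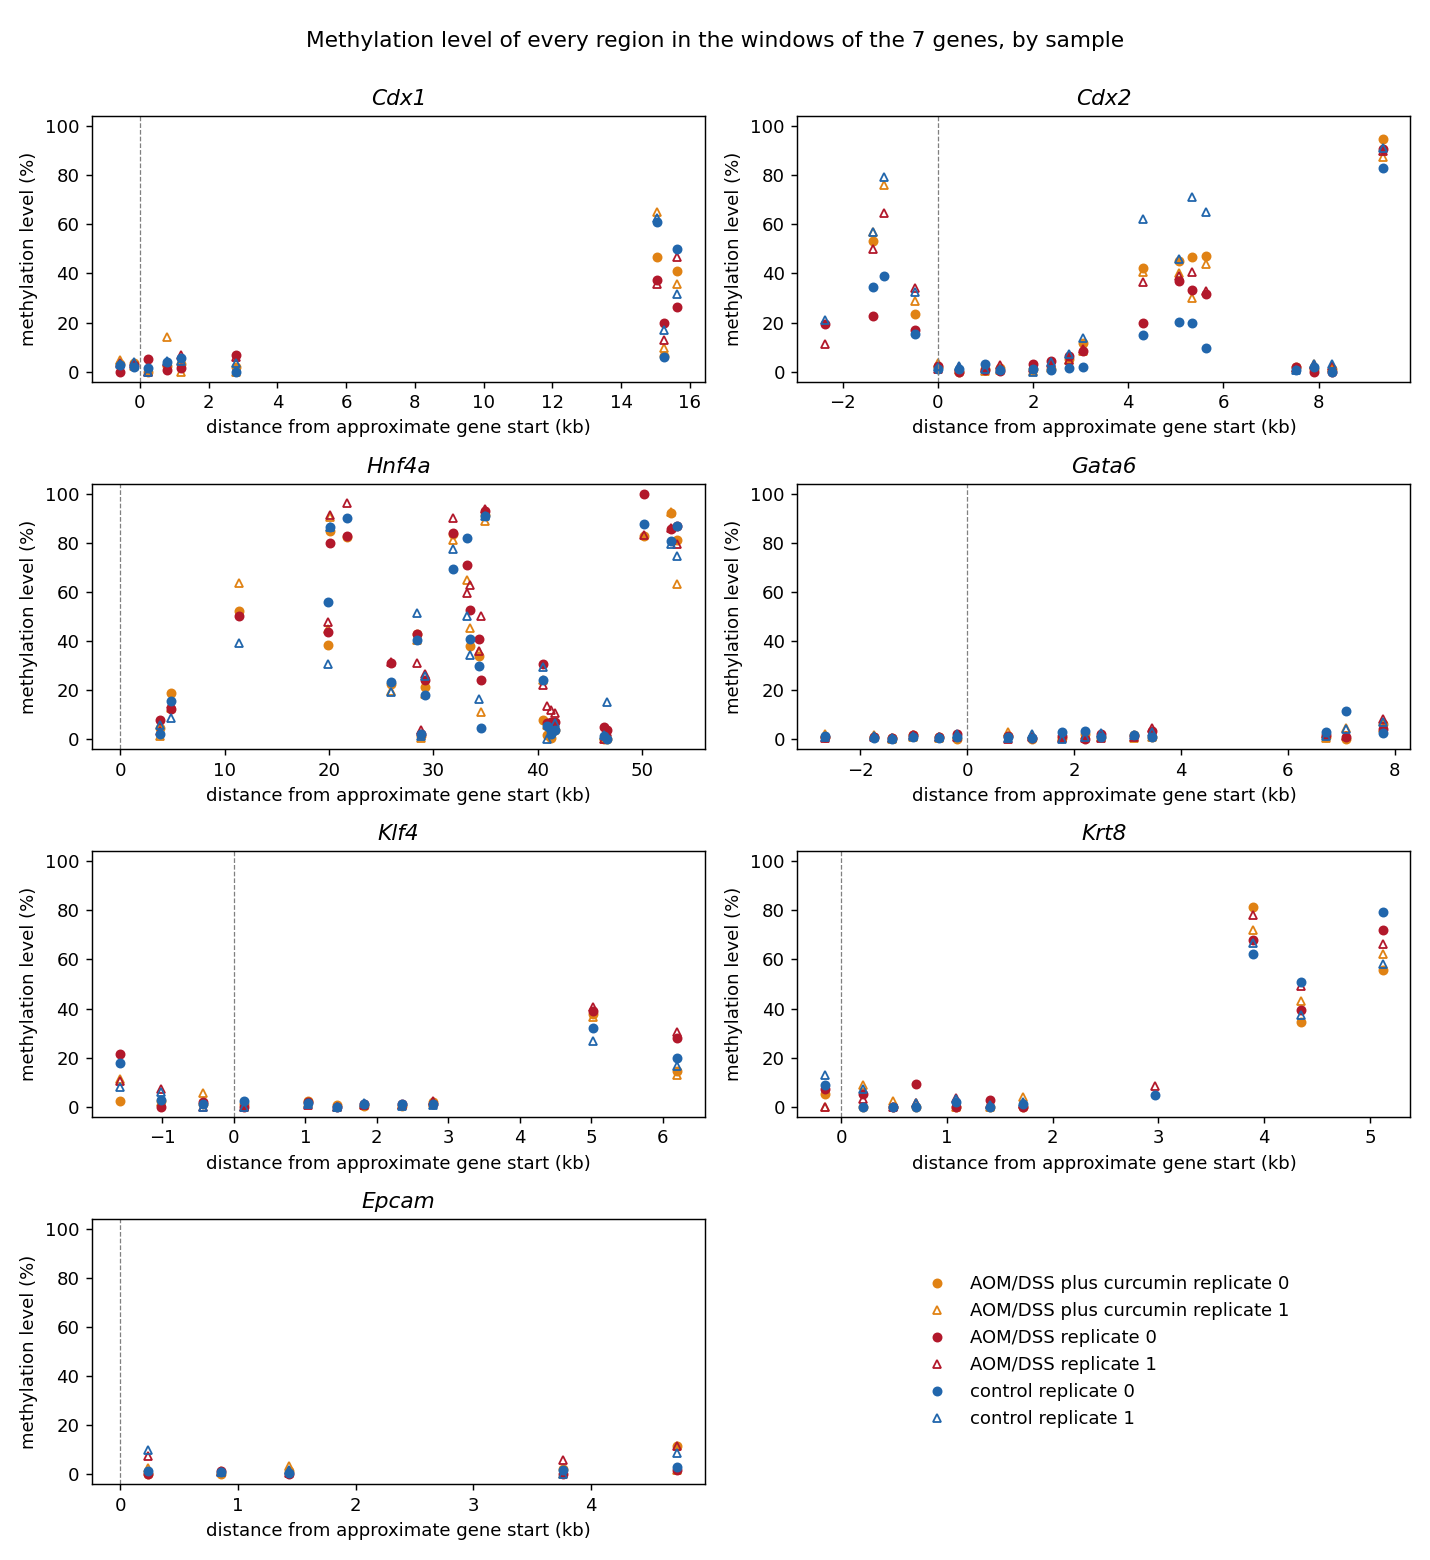
Methylation level in percent (vertical axis) of all 98 regions against distance from the approximate gene start in kb (horizontal axis, dashed line at 0), 1 panel per gene and 1 symbol per library; regions blank in a library have no symbol there. Gata6 and Epcam are low in every region with values, Cdx2 has an intermediate stretch in which the 2 controls lie apart, and Hnf4a alternates between low, intermediate and high.

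Cdx1 was low over 6 regions around its start, at means of 1.05% to 4.83%. The region at its lowest (chr18:61195705-61195820, 10 CpGs) held no methylated call in 4 of the 6 libraries, with 5% in AOM/DSS replicate 0 and 1.32% in control replicate 0. About 15 kb downstream, 3 CpG-poor regions stood at 38.6%, 12% and 51.3%. Between both groups of regions lie 12165 bases without a measured region, across a step of 48.3 points. The highest, chr18:61180902-61180995, rests on 23 to 43 calls per library. Gm52351 lies within 3 kb of Cdx1 in RefSeq, so some regions may belong to it.

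Cdx2 combined 2 unmethylated stretches with an intermediate one between them. From the start to about 3 kb into the gene, 8 regions had means of 0.946% to 8.94%. Then 4 neighbouring regions, 4.3 to 5.6 kb from the start, stood at 36.0% to 40.3%, and beyond the end of the gene 3 regions were again at 1.30% to 1.95%. The regions beyond the end border on the highest region (chr5:148109555-148109753, 4 CpGs) at 89.4%, across a step of 88.0 points within 778 bases. RefSeq places the noncoding gene Gm35112 within 3 kb of Cdx2, so some regions may belong to it. Upstream of the start the level climbed again, to 25.2% (148119309 to 148119661) and 45.7% (148120297 to 148120418).

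The intermediate stretch of Cdx2 is where the controls disagreed. Its widest region, chr5:148114515-148114875 with 11 CpGs, stood at 42.2% and 40.4% in AOM/DSS plus curcumin, 19.9% and 36.4% in AOM/DSS, and 14.8% and 62.3% in control. The Wilson 95% intervals of the control values, 11.01% to 19.7% in replicate 0 and 55.4% to 68.8% in replicate 1, are far apart at 256 and 199 calls. The regions from 148113310 to 148113409 and from 148113522 to 148113783 showed the same order, with 9.68% and 64.8%, and 19.9% and 71.2%, in control replicates 0 and 1. The other 4 libraries lay between the controls at both, at 31.7% to 47.2% and 30.1% to 46.6%. The remaining region (148113886 to 148113981) had 20.4% and 45.8% in control on 49 and 48 calls. Averaged over the 4 regions, the level was 45.3% and 38.6% in AOM/DSS plus curcumin, 30.4% and 37.2% in AOM/DSS, and 16.2% and 61.03% in control. Neighbouring regions nearer the start shared the order at much lower levels: from 148115800 to 148116092 the controls had 1.94% and 13.9%. Upstream of the start they had 15.5% and 32.3%, and 34.6% and 56.9%, in control replicates 0 and 1. A gap in composition between the libraries and a difference per cell cannot be told apart in DNA from many cells.

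**Figure D2:**
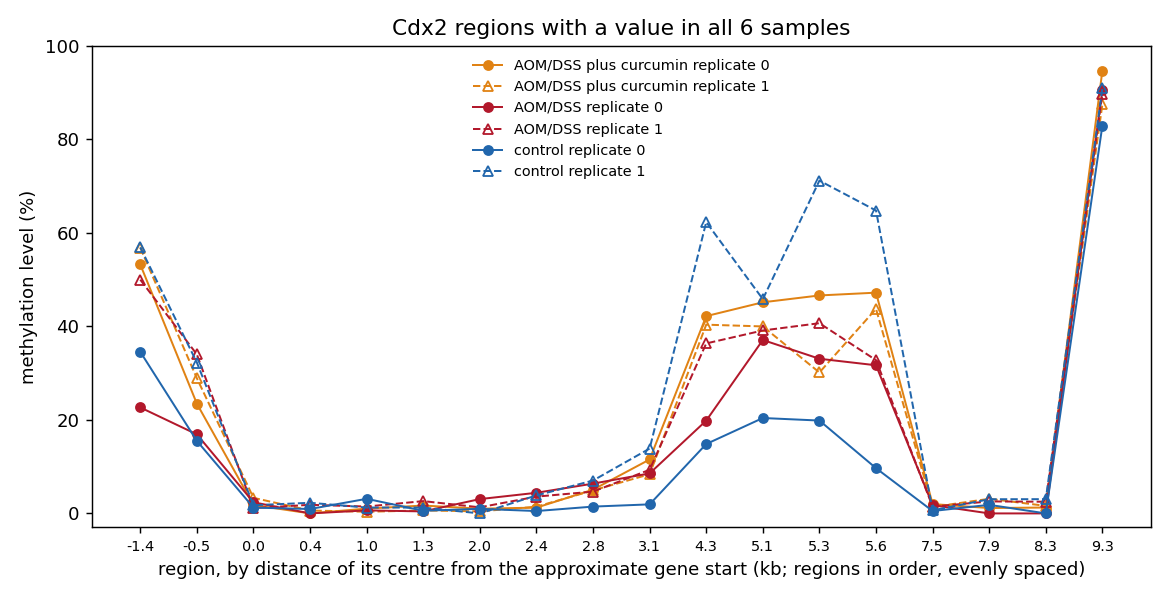
Methylation level in percent of the 18 compared Cdx2 regions, ordered by distance from the approximate gene start in kb and joined by 1 line per library. At 4.3 to 5.6 kb control replicate 1 lies at 45.8% to 71.2% and control replicate 0 at 9.68% to 20.4%, with the other 4 libraries between them, while all 6 lines meet near 0 from 0 to 2 kb.

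Hnf4a was the most mixed, with 7 low, 8 intermediate and 4 high regions among 19. Around its upstream start no region was measured. The nearest, 3.9 and 4.9 kb downstream, were low at 4.14% and 13.7%. RefSeq lists Hnf4aos and Gm25881 within 3 kb of or inside this window, so some regions may belong to them. Levels then alternated over short distances: 43.5% and 86.6% at 163351876 and 163352070, 1.91% at 163360605 to 163360996 (19 CpGs) with 41.5% and 22.4% on either side. The highest region was chr2:163366827-163366954 at 91.4% and the lowest chr2:163378303-163378443 at 1.53%, from which the largest step, 84.5 points, led to 86.1% at 163384720 to 163384860. A run of 3 low regions with 9 to 14 CpGs, from 163372698 to 163373773, stood at 5.60%, 4.83% and 6.16%, next to a region of 23.03% (163372359 to 163372533). Their distance from the approximate upstream start, 40.9 to 41.6 kb, is close to the 40298 bases between the starts shown above, so the run lies near the downstream start as far as this placing allows.

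Gata6, a factor of endoderm and of the crypt, was the most evenly unmethylated. All 16 compared regions were low, with means over the 6 samples of 0.330% to 5.49%, and 15 were under 5%. The lowest (chr18:11050471-11050711, 14 CpGs) stood at 0.394% and 0% in AOM/DSS plus curcumin, 0.478% and 0.606% in AOM/DSS, and 0% and 0.503% in control, at 113 to 254 calls. The highest (chr18:11059690-11059860, 5 CpGs), at the downstream edge of the measured part, stood at 6.40% and 4.44%, 4.29% and 8.43%, and 2.45% and 6.92% in the same groups. The measured regions cover only the start of this gene and the first 8 kb or so, and RefSeq places the noncoding gene Gata6os within 3 kb, so part of them may belong to it. The largest step between neighbours was only 2.18 points.

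Klf4 was nearly unmethylated from its start into the gene and partly methylated around its end. Of 11 regions 9 were low, 8 of them under 5%. Gm12506 lies within 3 kb of Klf4 in RefSeq, so some regions may belong to it. In the lowest (chr4:55544438-55544682, 22 CpGs) methylated calls appeared in 1 of 6 libraries, AOM/DSS plus curcumin replicate 0 with 0.806%. AOM/DSS replicate 0 had none in 174 calls, which allows a level of up to 1.72%. The largest step, 34.04 points, separated the region from 55543006 to 55543427, at 1.45% over the 6 samples, from that at 55540888 to 55541076 with 35.5%. Together with the region from 55539759 to 55539832, at 20.5%, this was all the intermediate DNA of the gene, 5.0 and 6.2 kb from the approximate start of a gene that is 5339 bases long in RefSeq.

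Krt8 had a low first part and a methylated second part. Krt78 and Gm36026 lie within 3 kb of it in RefSeq, so some regions may belong to them. Its 6 low regions ran from 0.778% to 5.71%, and 3 regions 3.9 to 5.1 kb from the start were intermediate. The highest, chr15:101830986-101831224 with 5 CpGs, stood at 81.4% and 71.8% in AOM/DSS plus curcumin, 67.8% and 77.9% in AOM/DSS, and 62.1% and 66.7% in control. The step of 69.8 points from there to the low region from 101833138 to 101833425 (1.45%) was crossed within 1914 bases that hold 1 more region, blank in most libraries. The lowest region (101833442 to 101833743, 21 CpGs) had no methylated call in either AOM/DSS plus curcumin library, 2.94% and 1.01% in AOM/DSS, and 0% and 0.714% in control.

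Epcam resembled Gata6, with 5 of 5 regions low and means of 1.01% to 6.44%. These regions lie 0.24 to 4.7 kb from the approximate start of a gene that is 15149 bases long in RefSeq, so most of it was not measured. The lowest region (chr17:88035757-88035956, 19 CpGs) stood at 0.328% and 1.44% in AOM/DSS plus curcumin, 1.19% and 0.804% in AOM/DSS, and 1.17% and 1.15% in control. The highest (chr17:88039504-88039960, 34 CpGs) was split by library and not by group. It stood at 11.5% and 2.00% in AOM/DSS plus curcumin, 1.67% and 11.6% in AOM/DSS, and 3.11% and 8.76% in control, at 330 to 551 calls, so each group held 1 library above 8% and 1 below 4%.

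The first comparison, AOM/DSS against control, addresses whether these genes carry other methylation after carcinogen and colitis. No member region passed. By the mean over their regions, Hnf4a and Klf4 stood higher in each AOM/DSS library than in each control library, and Cdx1 and Gata6 stood lower. For Cdx1 and Gata6, 1 region carried the lower mean, and the groups overlapped when all calls were pooled. These are descriptions, since no gene was tested as a whole. In edgeR's quasi-likelihood test, 0 of 87 members reached an adjusted p under 0.05 with a difference of at least 10 points, against 0.00389% of all regions. At an unadjusted p under 0.05 there were 8 (5 higher and 3 lower), against 6.34% of all regions. Limma called 0, as it did among all 179922 regions. Fisher's exact test, run on calls added over the samples of a group and therefore blind to their spread, called 1, against 2.00% of all regions. The mean over the 87 regions was 16.7% and 18.2% in AOM/DSS and 15.5% and 17.7% in control, a difference of 0.811 points with overlapping groups (exact permutation test, two-sided p = 0.667). With 2 samples against 2, this test cannot give a p below 0.333. The median difference was 0.291 points, against -0.264 points over all regions. Without overlap, 20 members were higher and 8 lower. By class, 11 low, 6 intermediate and 3 high members were higher, against 20%, 12% and 9.46% of all regions in those classes, and 7, 1 and 0 were lower, against 13.2%, 25.5% and 28.4%.

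At Hnf4a, 10 of 19 regions were higher without overlap and 0 lower, against 14.8% and 20.8% of all regions. The mean over the 19 regions was 39.1% and 39.8% in AOM/DSS and 35.7% and 33.9% in control, a difference of 4.604 points. It was 3.72 to 5.49 points when any 1 of these 4 libraries was left out. All 3 level classes took part: low regions differed by 3.16 points, intermediate by 5.51 and high by 5.31, while all regions of those classes differed by 0.425, -2.03 and -1.74 points. The intermediate value was 3.19 points without control replicate 1, and the high value 2.97 points without AOM/DSS replicate 1. The difference was largest at chr2:163365410-163365538 (7 CpGs, 122 to 174 calls), with 52.5% and 62.9% in AOM/DSS against 40.7% and 34.3% in control. Its means were 57.7% ± 7.41 in AOM/DSS and 37.5% ± 4.497 in control (n = 2 each, SD), 20.2 points apart (edgeR adjusted p = 0.693). This is the region that Fisher's exact test called (adjusted p = 0.000456), and over all alternatives its adjusted p ran up to 0.955.

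Some regions around it showed the same order and others did not. From 163366359 to 163366430 (3 CpGs) AOM/DSS had 40.6% and 35.9%, against 29.7% and 16.3% in control, a difference of 15.3 points. From 163363788 to 163363959 the values were 84.0% and 90.2% in AOM/DSS and 69.2% and 77.3% in control, at 22 to 51 calls. Some 8 kb upstream, chr2:163357721-163358210 (14 CpGs, 181 to 223 calls) had 31.1% and 31.4% in AOM/DSS and 23.2% and 19.4% in control. None of these passed (edgeR adjusted p of 0.801 to 0.822). The nearest region, 163365188 to 163365257, was blank in 1 library and overlapped, with 70.8% and 59.6% in AOM/DSS and 82% and 50% in control. From 163360316 to 163360503 the mean was 8.87 points lower in AOM/DSS, with overlap, at 43.04% and 31.03% against 40.3% and 51.6% in control.

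Near the downstream start of Hnf4a the 3 low regions were also higher, though at much lower levels. The middle one, chr2:163373064-163373406 with 12 CpGs and 162 to 250 calls, had 6.996% and 11.8% in AOM/DSS against 2.00% and 4.55% in control, a difference of 6.12 points (edgeR unadjusted p = 0.00907, adjusted p = 0.693). Its neighbours had 6.72% and 13.7% in AOM/DSS against 5.43% and 0% in control (163372698 to 163373044), and 7.03% and 10.6% against 3.84% and 6.63% (163373432 to 163373773). In all 3 both AOM/DSS libraries lay above both controls. Reads can span neighbouring regions, so they are not independent. The lowest AOM/DSS value and the highest control value are close in the first and last of them, at 6.72% and 5.43%, and at 7.03% and 6.63%.

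**Figure D3:**
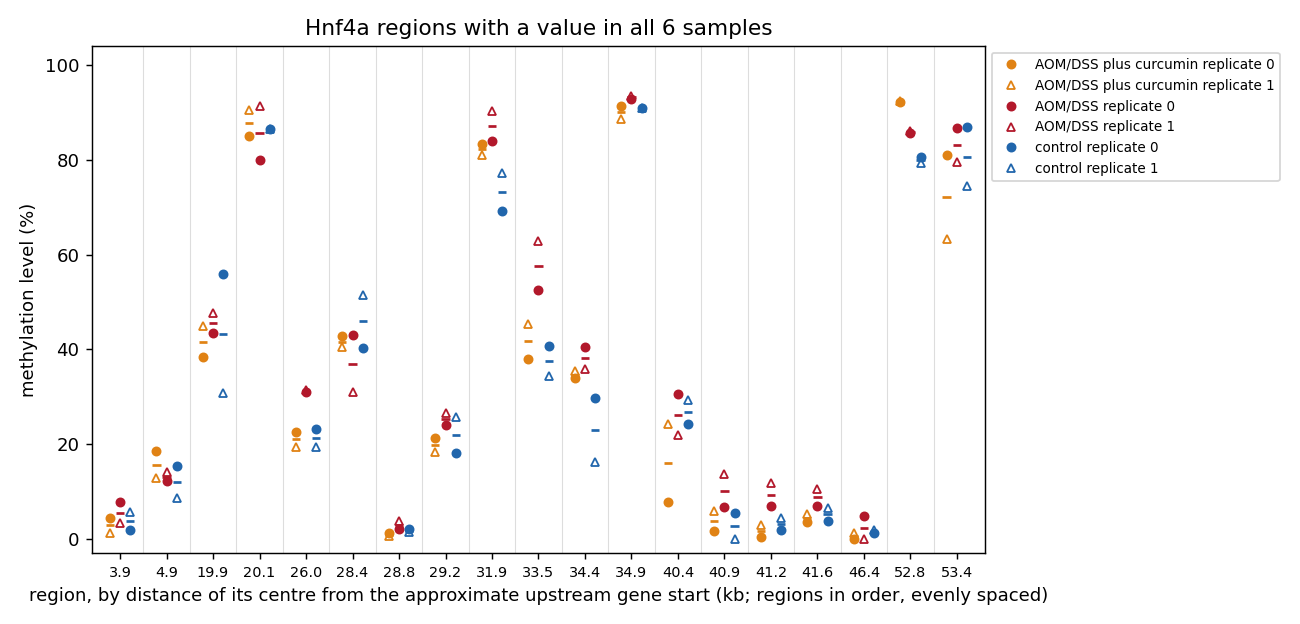
Methylation level in percent of the 19 compared Hnf4a regions, in order of distance from the approximate upstream start in kb, with the 2 libraries of each group as symbols and the group mean as a bar. Both AOM/DSS libraries lie above both controls in 10 regions, among them those at 26.0, 33.5 and 34.4 kb and the 3 low ones at 40.9 to 41.6 kb.

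At Klf4 the difference sat in the 2 intermediate regions around the end of the gene. From 55539759 to 55539832 (3 CpGs, 102 to 125 calls) AOM/DSS had 28.2% and 30.4%, against 19.8% and 16.8% in control, a difference of 11.003 points (edgeR adjusted p = 0.796). From 55540888 to 55541076 the values were 39.2% and 40.5% in AOM/DSS and 32.1% and 27.0% in control, 10.3 points apart (edgeR adjusted p = 0.851). Over all 11 regions AOM/DSS stood at 8.70% and 8.46% and control at 7.35% and 5.60%. Over the 9 low regions, which hold the start, 1 was higher and 1 lower without overlap.

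At Cdx1, chr18:61180902-61180995 showed the widest difference of all members. It had 37.2% and 35.7% in AOM/DSS against 60.9% and 62.5% in control, means of 36.5% ± 1.06 and 61.7% ± 1.15 (SD, n = 2 each) and a difference of -25.2 points (edgeR unadjusted p = 0.0375, adjusted p = 0.774). The close replicates rest on 23 to 43 calls each. It also carries the lower Cdx1 mean of -2.41 points: the other 8 regions, set apart after the values were seen, averaged 7.92% and 10.4% in AOM/DSS and 8.95% and 8.49% in control, a difference of 0.443 points. The neighbour from 61180303 to 61180427 did not share it, with 26.5% and 46.7% in AOM/DSS and 50% and 31.8% in control. Among the regions at the start of Cdx1, 1 (61193160 to 61193271) was higher in AOM/DSS without overlap, at 6.94% and 5.80% against 0% and 3.45% in control.

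At Gata6 the smallest unadjusted p of all members belonged to chr18:11054058-11054334 (35 CpGs, 268 to 429 calls), at 0% and 0.330% in AOM/DSS against 3.29% and 1.12% in control. The difference was -2.04 points (edgeR unadjusted p = 0.000816, adjusted p = 0.532), far under the 10 points that a call requires. The region from 11058927 to 11059254 had 1.09% and 1.41% in AOM/DSS against 11.6% and 4.08% in control, on 49 to 92 calls. It carries the lower Gata6 mean: its difference was -6.59 points. Over the 16 regions the mean difference was -0.378 points and the median -0.0823 points. Over the 16 regions, means of 1.55% and 1.63% in AOM/DSS stood just under 2.02% and 1.92% in control, but pooling all calls gave 1.53% and 1.40% in AOM/DSS and 1.37% and 1.55% in control, which overlap.

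Cdx2, Krt8 and Epcam gave no difference beyond the spread of their libraries. The Cdx2 mean was 15.5% and 19.7% in AOM/DSS and 11.7% and 25.7% in control. Its difference of -1.07 points was 5.91 points without control replicate 1 and -8.05 points without control replicate 0, so its sign depends on which control is kept. Without the 4 intermediate regions inside the gene it was -0.00787 points. One low Cdx2 region with many calls, chr5:148111295-148111666 (25 CpGs, 302 to 586 calls), stood at 1.77% and 1.45% in AOM/DSS and 0.512% and 0.662% in control. Krt8 averaged 22.7% ± 0.0138 in AOM/DSS and 21.9% ± 1.16 in control, and Epcam 2.93% ± 3.33 in AOM/DSS and 2.98% ± 1.89 in control (n = 2 each, SD).

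The second comparison sets AOM/DSS plus curcumin against AOM/DSS and addresses the effect of adding curcumin. No member passed. By the mean over their regions, Hnf4a, Klf4 and Krt8 stood lower in each curcumin library than in each AOM/DSS library, and the 4 intermediate regions inside Cdx2 averaged higher, with overlap when calls were pooled. In edgeR's test 0 of 87 members were called, as were 0% of all regions, with 9 at an unadjusted p under 0.05 (3 higher and 6 lower) against 5.25% of all regions. Limma called 0, as it did among all regions, and Fisher's exact test 3, against 0.998% of all regions. Without overlap, 9 were higher and 22 lower. By class, 3 low, 5 intermediate and 1 high members were higher, against 12.8%, 22.3% and 25.4% of all regions in those classes, and 13, 7 and 2 were lower, against 20.5%, 14.1% and 10.3%. The mean over the members was 16.5% and 16.8% with curcumin and 16.7% and 18.2% without it, or -0.776 points (exact permutation test, two-sided p = 0.667). The 2 AOM/DSS samples enter this comparison and the previous one with opposite sign, so a chance deviation of theirs would appear in both.

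At Hnf4a, 10 of 19 regions were lower without overlap and 1 higher, against 16.0% and 18.9% of all regions. The mean was 35.2% and 35.5% with curcumin and 39.1% and 39.8% without it, or -4.08 points. Low regions differed by -3.18 points and intermediate ones by -6.96, against -0.524 and 1.14 points for all regions of those classes. High Hnf4a regions differed by 0.112 points, with overlap. The member with the smallest unadjusted p was again chr2:163373064-163373406, at 0.559% and 3.09% after curcumin and 6.996% and 11.8% for AOM/DSS alone (means 1.82% ± 1.79 and 9.40% ± 3.395, SD, n = 2 each; difference -7.57 points, edgeR unadjusted p = 0.00115, adjusted p = 0.834). The flanking low regions had 1.82% and 5.95% with curcumin (163372698) and 3.57% and 5.26% (163373432), also below both AOM/DSS libraries. The region from 163365410 to 163365538 had 37.9% and 45.5% with curcumin, 16.0 points under AOM/DSS (edgeR adjusted p = 0.928, Fisher's exact test adjusted p = 0.0109, range over the alternatives 0.0109 to 1).

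At Klf4, the 3-CpG region from 55539759 to 55539832 had 14.7% and 12.9% in the curcumin libraries and 28.2% and 30.4% in the AOM/DSS libraries, which differ by -15.5 points (edgeR unadjusted p = 0.00662, adjusted p = 0.928; Fisher's exact test adjusted p = 0.0126). Its neighbour from 55540888 to 55541076 differed little, with 37.6% and 36.5% with curcumin against 39.2% and 40.5%. From 55547504 to 55547677 (4 CpGs) the level was 2.44% and 11.3% with curcumin and 21.5% and 10.6% in AOM/DSS, with overlap. Over the 11 Klf4 regions the mean difference was -2.30 points and the median -0.0796 points. At Krt8 the region from 101829729 to 101830031 (13 CpGs) had 55.8% and 62.2% with curcumin and 72.0% and 66.2% in AOM/DSS, but the controls spanned 58.3% to 79.5%. At Gata6, chr18:11055316-11055609 stood at 0.974% and 0.830% with curcumin and 3.43% and 4.48% in AOM/DSS (edgeR adjusted p = 0.928). The Gata6 region from 11054058 to 11054334, nearly free of methylated calls in AOM/DSS, had 2.34% and 1.62% with curcumin.

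Higher with curcumin without overlap were 4 of 18 regions of Cdx2 (22.2%) and 2 of 16 of Gata6 (12.5%), against 18.9% of all regions. At Cdx1 1 of 9 was higher, at Hnf4a 1 of 19 and at Epcam 1 of 5. The Cdx2 region from 148120297 to 148120418, upstream of the start, had 53.2% and 56.8% with curcumin and 22.7% and 50% in AOM/DSS, 18.7 points apart on 44 to 81 calls. Inside the gene, from 148114515 to 148114875, the values were 42.2% and 40.4% with curcumin against 19.9% and 36.4%, 13.2 points apart (edgeR adjusted p = 0.955, Fisher's exact test adjusted p = 0.00434). Over the 4 intermediate regions inside Cdx2 the difference was 8.10 points, but 4.69 points without AOM/DSS replicate 0 and 4.73 points without AOM/DSS plus curcumin replicate 0, while the 2 controls, at 16.2% and 61.03%, spanned both groups. Over all 18 Cdx2 regions it was 2.76 points with overlap, 0.657 points without AOM/DSS replicate 0 and 1.24 points without the 4 regions. The Cdx1 region from 61180902 to 61180995 had 46.7% and 64.9% with curcumin, 19.3 points above AOM/DSS (edgeR adjusted p = 0.949), with replicates 18.2 points apart.

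**Figure D4:**
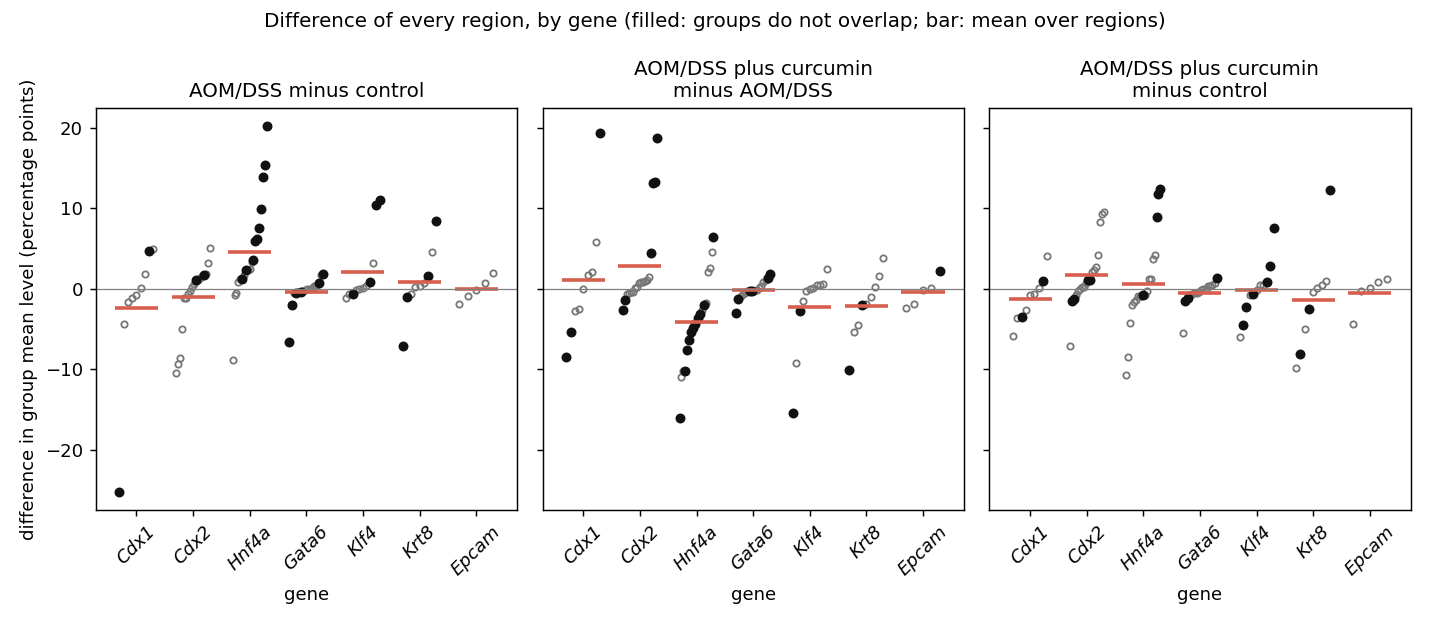
Difference between group means in percentage points (vertical axis) for each of the 87 regions, by gene, in the 3 comparisons; filled points mark regions whose groups do not overlap, and bars the mean over a gene's regions. Hnf4a lies mostly above 0 for AOM/DSS minus control and mostly below 0 for AOM/DSS plus curcumin minus AOM/DSS; both panels contain the same AOM/DSS samples.

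The third comparison sets AOM/DSS plus curcumin against control. No member passed. The mean over the members was 16.5% and 16.8% with curcumin and 15.5% and 17.7% in control, a difference of 0.0344 points (exact permutation test, two-sided p = 1). In edgeR's test 0 of 87 members were called, as were 0% of all regions, and 4 had an unadjusted p under 0.05 against 4.17% of all regions. Limma called 0, as it did among all regions, and Fisher's exact test 0, against 0.355% of all regions. Without overlap, 11 were higher and 11 lower, against 14.3% and 17.7% of all regions. Controls also enter the first comparison and curcumin libraries the second.

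The Hnf4a means, 35.2% and 35.5% with curcumin and 35.7% and 33.9% in control, overlapped, as did the 3 low regions near the downstream start. With all calls pooled they did not overlap, at 24.4% and 25.5% with curcumin and 22.4% and 22.2% in control. The 4 high Hnf4a regions averaged 87.98% and 88.2% with curcumin and 81.8% and 83.5% in control, 5.42 points apart without overlap. Higher without overlap among them were 163363788 to 163363959, with 83.3% and 81.1% against 69.2% and 77.3% in control, and a second region further downstream. That second region, chr2:163384720-163384860 (8 CpGs, 67 to 146 calls), had 92.2% and 92.5% with curcumin and 80.6% and 79.3% in control. Its difference was 12.4 points (edgeR unadjusted p = 0.00747, adjusted p = 1), and AOM/DSS lay between at 85.6% and 86.1%. From 163366359 to 163366430 the level was 33.9% and 35.4% with curcumin and 29.7% and 16.3% in control. At Krt8, chr15:101830986-101831224 had 81.4% and 71.8% with curcumin and 62.1% and 66.7% in control, 12.2 points apart (edgeR adjusted p = 1). The Gata6 region with most CpGs, chr18:11052534-11052978 (37 CpGs, 605 to 988 calls), stood at 1.32% and 2.96% with curcumin and 0.847% and 0.661% in control. The mean over the 16 Gata6 regions went the other way, at 1.26% and 1.63% with curcumin and 2.02% and 1.92% in control. This difference of -0.526 points was without overlap, but the groups overlapped when all calls were pooled. The widest Gata6 difference, -5.57 points from 11058927 to 11059254, came with overlap. The Cdx2 region from 148111295 to 148111666 had 2.00% and 1.39% with curcumin, above 0.512% and 0.662% in control (edgeR adjusted p = 1). The mean over all Cdx2 regions differed by 1.69 points with overlap, by 8.67 points without control replicate 1, by -5.29 points without control replicate 0, and by 1.23 points without the 4 intermediate regions inside the gene.

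Some of the 11 regions left out had values in part of the libraries. The Hnf4a region from 163366536 to 163366618, 3 CpGs beside those that were higher in AOM/DSS, had 11.1% in the measured AOM/DSS plus curcumin library, 24% and 50% in AOM/DSS and 4.76% in the measured control, at 21 to 27 calls. The Cdx2 region from 148120103 to 148120141 repeated the gap between controls, with 39.1% and 79.3% in control replicates 0 and 1. One Gata6 region had no value in any library.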

How the data were processed

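Captured DNA (Agilent SureSelectXT Mouse Methyl-Seq, per the labels' protocol) was bisulfite sequenced. The submitters' processing notes name the tools Bismark (0.15.0), ChIPseeker (1.10.3) and R (3.4.0) and the build mm9, without roles or settings. The authors deposited, for each region and sample, the count of CpGs, of methylation calls and of methylated calls, with 20 calls as the lowest number. How regions were drawn, whether duplicates were removed and whether starts count from 0 or 1 are not stated in those sources, so a start may be off by 1 base.

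Regions needed 10 calls in every sample. All 179922 such regions entered one edgeR 4.0.16 fit (R 4.3.3): a quasi-likelihood test of methylated against unmethylated counts, with all 6 samples sharing 1 spread and Benjamini-Hochberg adjustment over all regions. Calls required both an adjusted p under 0.05 and a difference of 10 points. limma 3.58.1 used log2 ratios after 2 calls were added. Means were taken in Python 3.11.15. The fit was also run on simulated data, in which it called only a small part of the regions given a change. A region without a call is therefore not shown to be equal between groups.

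The members and lists were chosen with earlier results of these data known. Named are, per gene, the lowest and highest regions and the largest step, and per comparison the regions with the 3 smallest unadjusted p and the 3 largest differences without overlap; further regions were chosen after their values were seen. Alternatives covered coverage, minimum difference, samples, window and test. Other marker lists were not analysed here, as no mm9 annotation was used.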

Additional observations from a re-analysis of the deposited data

How the results depend on the processing

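Among the 87 regions, the count of calls was 0 in each comparison. It stayed 0 with at least 50 calls, with only the 4 samples compared, with limma and with windows widened by 3 kb. Limma called 0 of all 179922 regions as well. The count was also 0 without a minimum beyond a value in each sample, with no minimum difference or 20 points, and with windows narrowed by 3 kb. The same held, for AOM/DSS against control, without the Cdx2 regions whose controls lie over 30 points apart (chosen after seeing the data). These further settings could not have added a call. No region held under 20 calls, no member had an adjusted p under 0.05, and narrower windows or fewer Cdx2 regions only drop members. Leaving out each sample in turn gave 0 to 0 calls in each comparison. Fisher's exact test on summed calls gave 1 for AOM/DSS against control, 3 for AOM/DSS plus curcumin against AOM/DSS and 0 for AOM/DSS plus curcumin against control; it ignores the spread between samples. The fit with a replicate block gave 0 calls in each comparison; same-numbered samples deviated together with correlations of only 0.00754 to 0.0548 across regions, so the numbers were not taken as pairs. The mean difference over the members moved by less than the spread between samples under every alternative listed for it. Leaving out 1 of 2 samples cannot move it beyond that spread, so those settings could not have shown otherwise. With 1 sample left out the difference ran from -0.302 to 1.92 points for AOM/DSS against control, from -1.52 to -0.0299 for AOM/DSS plus curcumin against AOM/DSS and from -1.08 to 1.15 for AOM/DSS plus curcumin against control. Without the 3 Cdx2 regions (chosen after seeing the data) the first 2 were 1.13 and -1.14 points, and the groups no longer overlapped. With 2 samples a group and as few as 22 calls in a member, the precision is limited, and a region that missed the threshold is not shown to be equal between groups. Without the 3 Cdx2 regions, AOM/DSS and control still overlapped when calls were pooled, as they did over all 87 regions.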
